A study of Drosophila melanogaster with 8 samples.

Results

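The regions described here are stretches of the *Drosophila melanogaster* genome that were listed as bound by dFOXO in *chico* heterozygotes and that lie upstream of a gene, on the 5′ side of its start. The deposited *chico* list pairs regions with genes, so each region was counted once and was given the gene of lowest rank in the list, which is called its first gene, and the location stated for that gene was used. By this rule 205 of 1331 *chico* regions (15.4%) were upstream, against 607 inside a gene on its 5′ side, 486 inside a gene on its 3′ side and 33 downstream of a gene. For 64 of the 205 regions a gene with another location shared the lowest rank, and the order of the list decided. With any gene of the region allowed to decide, 550 regions were upstream, and with every gene required to agree 135 were.

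The *chico* flies were heterozygous for the loss-of-function allele chico1 in a background that also carried y1, cn1 and ry506. The second genotype, named IPC, had insulin-producing cells of the brain ablated in part in adults, by *dilp2-GS-Gal4* driving the cell death gene *rpr* from a UAS transgene while RU486 was fed. Both were whole females aged 15 days. Each genotype gave 2 biological replicates of DNA precipitated with an affinity-purified antibody against dFOXO, each from a pool of 200 to 250 flies, and 2 of input DNA, 8 samples in all in 4 groups. The authors pooled replicates before regions were called, so every interval and p-value below covers at most counting error and compares pooled libraries. No spread between replicates can be given. No ChIP from wild-type or *foxo* null flies was analysed here. Since whole bodies were used, a change in the number of cells of a type and a change in binding per cell cannot be told apart.

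dFOXO is the single FOXO transcription factor of the fly and acts at the end of the insulin pathway. When insulin signalling is active, the kinase Akt phosphorylates FOXO and keeps it in the cytoplasm, and when signalling is low FOXO enters the nucleus and binds DNA near genes of growth, metabolism and stress resistance. *chico* encodes the insulin receptor substrate, so its mutants have less of this signalling. The stretch just 5′ of a gene holds its promoter, and enhancers may lie farther upstream or in introns.

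Upstream regions were enriched weakly in ChIP tags over scaled input tags, to the same median as regions elsewhere. The ratio of ChIP tags to input tags, after the authors scaled the input to the ChIP library, had a median of 1.103 over the 205 upstream regions, with quartiles of 1.082 and 1.131 and a range of 1.07 to 1.405. Over all 1331 *chico* regions the median was 1.103 too, with 1.106 inside the 5′ side of genes, 1.099 inside the 3′ side and 1.104 downstream. A ratio of at least 1.2 was found in 6 of 205 upstream regions (2.93%, Wilson 95% interval 1.35 to 6.24%), against 55 of 607 regions inside the 5′ side of a gene (9.06%, interval 7.03 to 11.6%), 12 of 486 inside the 3′ side (2.47%), 2 of 33 downstream (6.06%) and 75 of all 1331 (5.64%). The upstream share was thus near that of the 3′ side. Regions are not replicates, so the classes were described and not tested against each other.

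**Figure D1:**
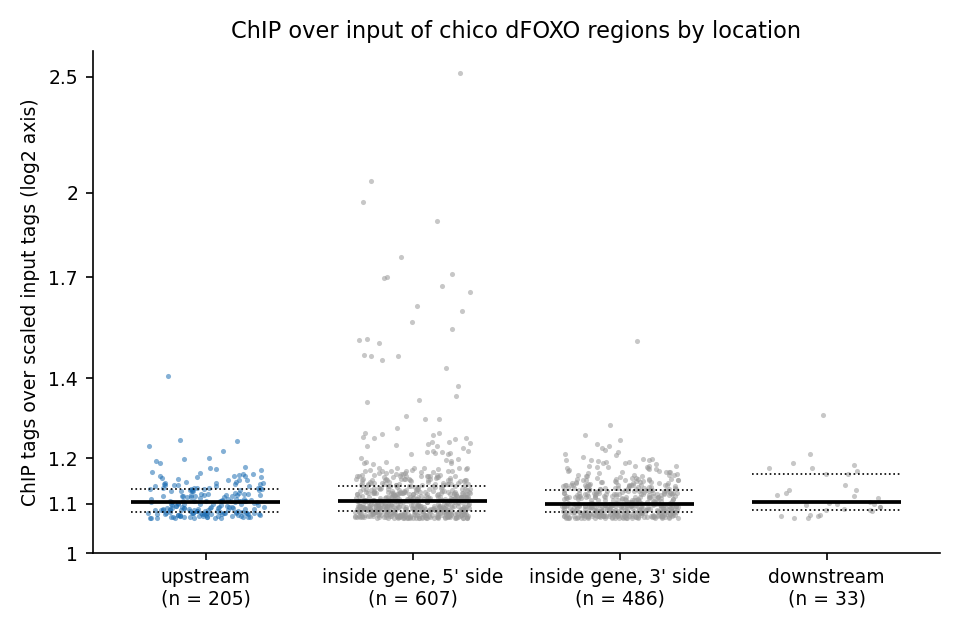
Ratio of ChIP tags to scaled input tags (log2 axis) of each *chico* region, in the 4 location classes. Each point is a region, solid lines are medians and dotted lines quartiles. The medians lie between 1.099 and 1.106, and the highest upstream region reaches 1.405 while the highest region inside the 5′ side of a gene reaches 2.518.

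An exact one-sided binomial test asked in each region whether ChIP tags exceeded scaled input tags, with Benjamini-Hochberg adjustment over the 26819 candidate regions that the deposited p-values imply. The authors had already selected every listed region with PeakSeq at an FDR of 0.01, on the same pooled reads. The p-value they deposited is 0 in 204 of the 205 upstream regions. By the exact test only 1 of 205 (0.488%) had an adjusted p of at most 0.01, where 2.7% of all *chico* regions did. The exact p-values thus differ from the deposited ones, and the reason was not tested. Of the 36 regions of the list that passed, 33 were inside the 5′ side of a gene, 1 inside the 3′ side and 1 downstream. The gap depends on the adjustment. Over the listed regions only, 10 upstream regions (4.88%) passed, where 6.39% of all *chico* regions did. Those regions had been selected for ChIP above input beforehand, so that count is not separate evidence of it. With the first adjustment 16 upstream regions passed when the input was lowered by 5% and 0 when it was raised by 5%. Without adjustment, 117 upstream regions (57.1%) had an exact p under 0.05, where 61.4% of all *chico* regions did. The median upstream region held 1357 tags of both kinds together, and at that depth the smallest ratio with an exact p under 0.05 is 1.097. Most of the upstream regions thus sit near the limit that their counts set.

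The upstream region that passed belongs to *CG3764* (FBgn0036684) on 3L, from 17002991 to 17003627 in the coordinates of the list, whose genome build is not given in the sources used here. It held 494 ChIP tags against 352 scaled input tags, a ratio of 1.41 (95% interval 1.22 to 1.61, adjusted exact p = 0.000547). At 637 bp it was the narrowest of the 205 regions, and at 775.5 ChIP tags per kb, against 552.6 input tags per kb, the most densely tagged. Its centre lay 7935 bp from the start of *CG3764*, above the upper quartile of 4649 bp. No other gene was listed with the region, although *CG3764* had rank 2 there, and the region overlapped no gene of either list.

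The upstream regions next in ratio were those of *CG17821*, *CG18437*, *CG10731*, *CG18431* and *nrv3*, and none passed. *CG17821* on 2R had 630 ChIP and 507 input tags, a ratio of 1.24 (interval 1.10 to 1.40). *CG18437* on 3R had 780 ChIP and 629 input tags, also a ratio of 1.24 (interval 1.11 to 1.38, adjusted exact p = 0.0218). Both lie close to their genes, with centres 1187 and 1096 bp from the start, but the *CG17821* region also overlapped *Hs3st-A*. *CG18431* on 2R had 814 ChIP and 670 input tags and a ratio of 1.22. *nrv3*, which encodes a beta subunit of the sodium-potassium pump, had 618 ChIP and 515 input tags and a ratio of 1.20 (interval 1.07 to 1.35). The *nrv3* region also overlapped *CG8665*. The rest of the 12 largest ratios, from 1.175 to 1.198, belonged to *CG3630*, *ato*, *CG42342*, *CG14757*, *CG16956* and *CG14762*. Of these *ato*, a proneural transcription factor of the basic helix-loop-helix class, had 616 ChIP and 517 input tags (ratio 1.19, interval 1.06 to 1.34) in a region centred 890 bp from its start. A region of lower ratio came closest to the threshold, that of *a6* on the X chromosome (adjusted exact p = 0.0150), singled out after its values were seen.

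*CG10731* was the only one of the 23 genes that the study followed up by measuring their expression to have an upstream region by this rule, although 17 of them are in the *chico* list. Its region on 2R, from 12037538 to 12038723, held 671 ChIP and 547 input tags, a ratio of 1.23 (interval 1.09 to 1.38, adjusted exact p = 0.0924). The centre was 1009 bp from the gene start. No other gene was listed with the region, but *CG10731* had rank 4 there. The ratio was the fourth largest of the 205, and it did not pass the adjusted threshold. The paper also measured binding by gene-specific ChIP-PCR, which was not re-analysed here. It reported more dFOXO binding than in wild type at all its candidates, in both genotypes.

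At the lower end, ratios stopped at 1.07, which was the lowest value in the whole *chico* list. The regions of *CG2278* and *hang*, both on the X chromosome, were among those at this value. *hang*, a zinc-finger gene known for its part in ethanol tolerance, had 626 ChIP and 586 input tags (interval of the ratio 0.953 to 1.20), and its region overlapped *Anxb11*. *CG2278* had 736 ChIP and 688 input tags (interval 0.963 to 1.19). Both intervals include 1.

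Tag density was also that of the rest of the list. Upstream regions had a median of 487.3 ChIP tags per kb and 442.3 scaled input tags per kb, against 488.4 and 441.5 over all *chico* regions. Their median width was 1413 bp, against 1395 bp over all. Together they held 159744 ChIP tags and 144169 scaled input tags, which is 15.8% of the ChIP tags of the list in 15.9% of its width. Across the 205 regions ChIP density followed input density closely (Spearman correlation 0.94, n = 205). The ratio was lower where input density was higher (Spearman correlation -0.33), although input density is the denominator of that ratio, so the 2 quantities share counts. These correlations describe regions of the same pooled libraries and are given without a test.

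**Figure D2:**
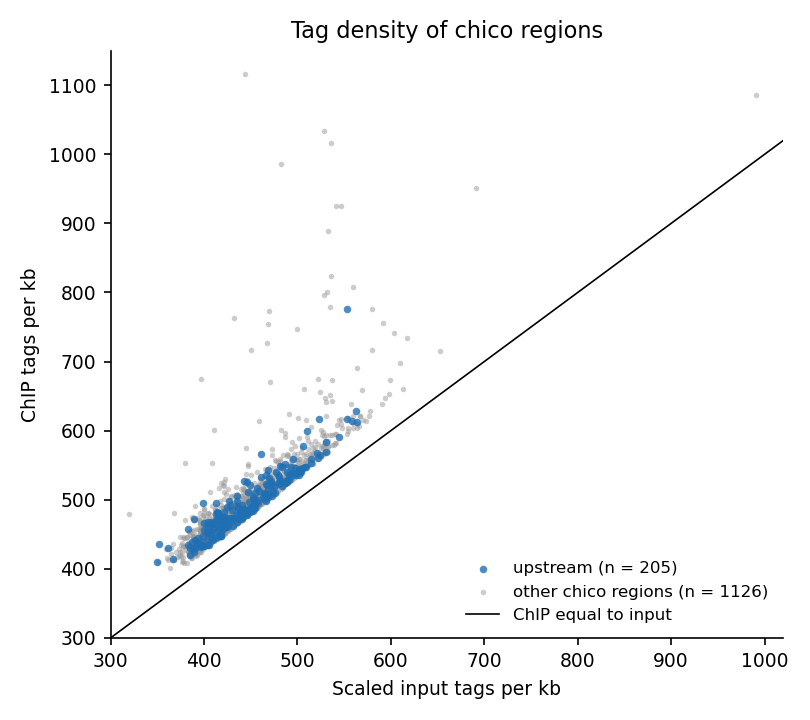
ChIP tags per kb against scaled input tags per kb for upstream regions (blue, n = 205) and the other *chico* regions (grey, n = 1126), with the line of equal values. All points lie above the line, since the list holds only regions with a ratio of at least 1.07, and 1 upstream point stands apart at 775.5 ChIP tags per kb.

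The most densely tagged upstream regions after *CG3764* were those of *CG9934*, with 628.2 ChIP and 562.6 input tags per kb, and *CG7120*, with 617.1 ChIP and 552.6 input tags per kb. Their ratios were ordinary, 1.12 in both, so their high density was shared by the input. The widest regions were those of *ine*, *sgg* and *CG6966*. *ine* encodes a transporter related to those that clear neurotransmitters, and its region spanned 5460 bp with 2658 ChIP and 2410 input tags (ratio 1.10, interval 1.04 to 1.17). *sgg*, the fly glycogen synthase kinase 3 of the Wnt and insulin pathways, had 4914 bp with 2396 ChIP and 2233 input tags, a ratio of 1.07 (interval 1.01 to 1.14). With that many tags an exact p of 0.00863 before adjustment went with a ratio near the bottom of the list. The width of a region and its ratio were not related in rank (Spearman correlation -0.05, n = 205).

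Most upstream regions were not at the promoter of their first gene. The distance from the centre of the region to the start of the first gene had a median of 2598 bp, quartiles of 1531 and 4649 bp, and a range of 539 to 9883 bp. The centre was within 1 kb of the start in 13 regions (6.34%, Wilson interval 3.74 to 10.6%), between 1 and 2 kb in 60, between 2 and 5 kb in 86 and beyond 5 kb in 46. Measured from the nearest edge, 63 regions (30.7%) came within 1 kb and 9 within 200 bp. No upstream region reached into its first gene, with gaps of 9 to 8982 bp and a median of 1796 bp. In contrast 291 of 607 regions inside the 5′ side of a gene (47.9%) spanned the gene start, so regions that cover the start of their first gene are mostly counted there. The start of another gene did lie within some upstream regions. In the region of *Gef64C*, 1558 bp wide, *CG18418* started 294 bp from the centre. The average sheared fragment was about 500 bp, shorter than the median width.

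**Figure D3:**
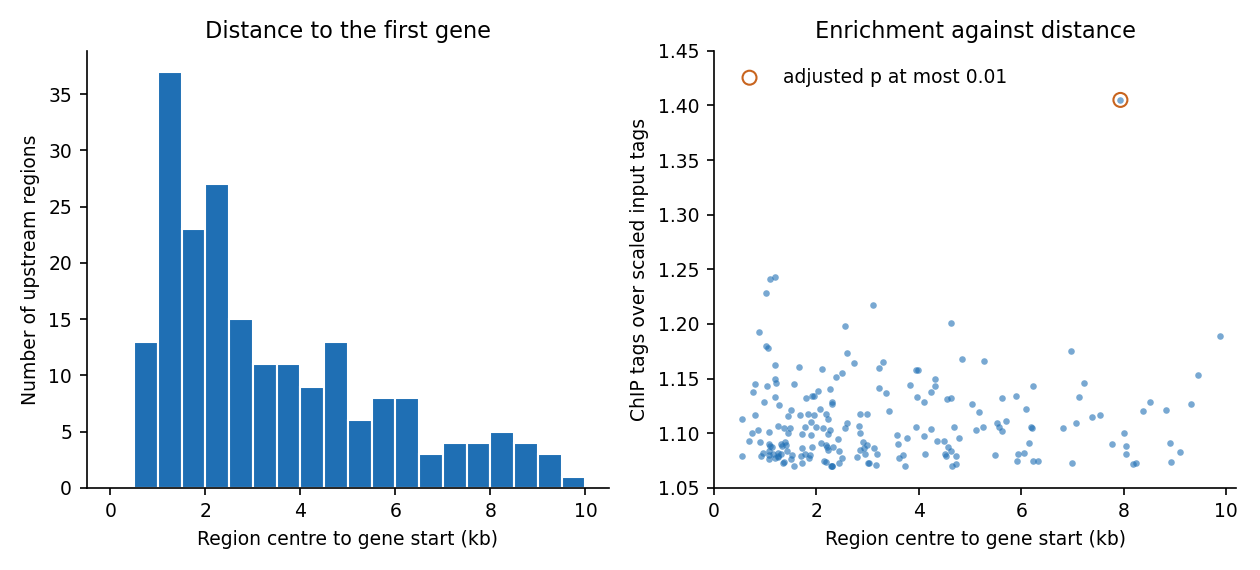
Left, number of upstream regions by distance from the region centre to the start of the first gene in kb, in bins of 0.5 kb. Right, ratio of ChIP to scaled input tags against that distance, with the region of *CG3764*, whose adjusted p is at most 0.01, circled. Distances run from 539 to 9883 bp with most under 5 kb, and the ratios show no trend with distance.

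Enrichment hardly varied with distance. The median ratio was 1.103 within 1 kb, 1.099 from 1 to 2 kb, 1.099 from 2 to 5 kb and 1.106 beyond 5 kb, and the rank correlation of distance with ratio was 0.02 (n = 205). An exact p under 0.05 was found in 7 of 13 regions within 1 kb and in 31 of 46 beyond 5 kb, against 57.1% of all upstream regions. The nearest regions were those of *CG11000*, *CG34287* and *CG31302*, all on 3R, at 539, 547 and 685 bp. *CG11000* had 551 ChIP and 496 input tags, a ratio of 1.11 (interval 0.982 to 1.26), and the edge of its region lay 13 bp from the gene. *CG34287* had 546 ChIP and 507 input tags (interval of the ratio 0.953 to 1.22). The intervals of both include 1. The farthest regions were those of *CG42342* at 9883 bp, *CG32626* at 9457 bp and *sr* at 9320 bp. *sr* encodes a zinc-finger transcription factor that specifies tendon cells, and its region held 810 ChIP and 719 input tags (ratio 1.13, interval 1.02 to 1.25). That region overlapped *CG14317*, whose start was 362 bp from the centre and within the region. The region of *CG42342* overlapped *Cad89D*, whose start was 2501 bp away.

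The last 2 cases were not rare. Although named as upstream of the first gene, 102 of the 205 regions (49.8%) overlapped another gene of the *chico* or IPC list, and 103 overlapped none. In 67 regions the overlapped gene was listed for the region itself, and in 36 it was a gene listed with another region, 1 region having both. Each gene appears only once in the *chico* list, 2042 genes in 2042 entries, and of those 36 genes 28 are elsewhere in the *chico* list, 15 of them with a region of equal or higher ratio. Examples are *Jra*, the fly Jun, whose region overlapped *CG2269*, and *N*, the Notch receptor, whose region overlapped *kirre*. The first gene had the nearest start among the genes of both lists in 136 regions (66.3%), and another gene started nearer in 69. The median ratio was 1.098 in the 102 regions that overlapped another gene and 1.105 in the 103 that did not, with an exact p under 0.05 in 51.0% and 63.1%. Genes that are in neither list were not considered, so the number that lies in no gene at all may be smaller.

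A second gene was listed for 85 of the 205 regions. There were 120 regions with 1 gene, 60 with 2 and 25 with 3 or more, which is 58.5, 29.3 and 12.2%, against 60.7, 27.4 and 11.9% over all *chico* regions. Of the 115 further genes, 62 were on the same strand as the first gene, 33 on the opposite strand without facing away from it, and 20 on the opposite strand with the region between both starts. The last arrangement is a divergent pair, in which the genes are transcribed away from each other and the region lies upstream of both starts, with or without further genes between them.

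Divergent pairs were found at 20 of 205 upstream regions (9.76%). Over the whole list 254 of 1331 regions (19.1%) were counted, but these include regions inside their first gene. Inside the 3′ side of a gene 89 of 486 regions were counted, although only 16 of the 486 spanned the gene start. Most of these 89 thus cannot lie upstream of both starts, so the shares do not compare like with like. The starts of the 20 pairs were 2513 to 14994 bp apart with a median of 4085 bp. In none were they within 1 kb. Inside the 5′ side of a gene, 75 of 140 counted pairs had starts within 1 kb. There too a region need not lie upstream of both starts. A region that reaches into its first gene is not called upstream, and regions were mostly wider than 1 kb, so close pairs are mostly outside the definition of an upstream region. In 13 of the 20 pairs a further gene of the lists lay between the starts, and in 7 none did. These 7 were *CG6324* and *CG9203*, *Dcp-1* and *wmd*, *CG15628* and *CG3225*, *slo* and *Ppox*, *CG15270* and *vig*, *CG6495* and *CG17124*, and *CG31068* and *CG31063*, named after their arrangement was seen.

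**Figure D4:**
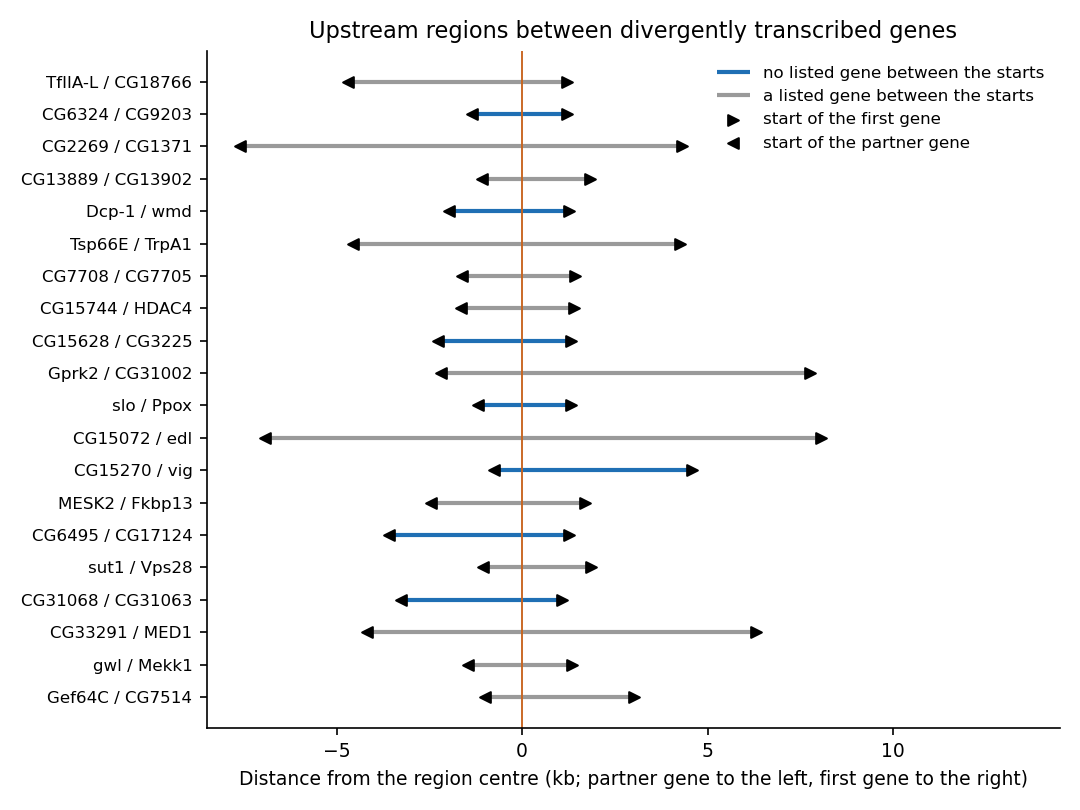
The 20 upstream regions between divergent genes, ordered from the largest ratio of ChIP to input tags at the top. The vertical line is the centre of the region, arrowheads are the starts of the first gene (right) and of the partner gene (left) in kb, and blue bars mark the 7 pairs with no listed gene between the starts. No pair has its starts closer than 2513 bp.

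The divergent pairs had low ratios. Their median was 1.089, against 1.105 in the 185 other upstream regions. None passed the adjusted threshold, and 8 of 20 had an exact p under 0.05 before adjustment (40.0%, Wilson interval 21.9 to 61.3%), below the 57.1% of all upstream regions but with an interval that includes it. The largest ratio was at *TfIIA-L* and *CG18766*, with 773 ChIP and 666 input tags (1.16, interval 1.05 to 1.29). *TfIIA-L* encodes the large subunit of a general factor of RNA polymerase II transcription, and its start was 1199 bp from the centre. The start of *CG18766* was 4684 bp away, and the region overlapped *CG5987*, whose start was nearer, at 1094 bp. *CG6324* and *CG9203* followed with 858 ChIP and 749 input tags (1.15, interval 1.04 to 1.27) and had their starts 1221 and 1344 bp to each side. The region of *CG2269* and *CG1371* had 896 ChIP and 785 input tags (1.14, interval 1.04 to 1.26), but its centre was 4315 and 7614 bp from these starts. It overlapped *egr*, which encodes the fly tumour necrosis factor ligand. *CG13889* and *CG13902* had 766 ChIP and 686 input tags, with the taste receptor gene *Gr61a* between them. *Dcp-1*, an effector caspase of apoptosis, and *wmd* had 1086 ChIP and 981 input tags in a region of 2008 bp (1.11, interval 1.01 to 1.21).

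Upstream regions were listed for some genes of most gene lists. The 12 lists of pathways and other gene groups together held 17 distinct first genes, in 9 of the lists, and none of the 17 passed. Their ratios ran from 1.073 to 1.14 with a median of 1.102, against 1.103 over all 205. An exact p under 0.05 was found for 10 of 17, near the 57.1% of all upstream regions. As a background, 197 of the 13962 protein-coding genes of the gene table (1.41%) were first genes of an upstream region. The share was 4.55% in the insulin and TOR list, 5.13% in the Notch list, 8.70% in the clock list and 9.72% in the ion channel list, from 2.22 to 3.57% in the other lists with any, and 0 in 3 lists. With 1 to 7 genes a list these shares are imprecise.

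In insulin and TOR signalling, 2 of 44 genes were first genes. *gig*, the fly Tsc2 that restrains TOR, had 584 ChIP and 540 input tags (ratio 1.08, interval 0.960 to 1.22) and its region overlapped *CG7365*. *sgg*, described above for its width, was the other, and it was also the only one of 42 Wnt genes. Of 45 genes of JNK signalling and the stress response *Jra* alone had such a region, with 881 ChIP and 773 input tags on 2R (ratio 1.14, interval 1.03 to 1.26, adjusted exact p = 0.570). In the TGF-beta and BMP list, 1 of 28 genes had one. This was *tok*, a metalloprotease of the Tolloid family, with 631 ChIP and 581 input tags (interval of the ratio 0.969 to 1.22). The *tok* region overlapped *CG13627*. No gene had one among 51 genes of EGFR and Ras signalling, 25 of autophagy or 93 of the cytosolic ribosome, while 13, 0 and 4 of them were in the *chico* list at any location.

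Genes of developmental and clock regulation had a few. In the Notch list 2 of 39 genes were first genes. *N* had 862 ChIP and 762 input tags (ratio 1.13, interval 1.02 to 1.25), and *HLHmdelta*, a repressor of the Enhancer of split complex that Notch activates, had 550 ChIP and 505 input tags (interval 0.963 to 1.23). *dsf*, an orphan nuclear receptor of sexual behaviour, was the only one of 40 genes of the hormone and nuclear receptor list, with 733 ChIP and 654 input tags (ratio 1.12, interval 1.01 to 1.25). *Clk*, the activator of the circadian clock, had 1129 ChIP and 1030 input tags (ratio 1.10, interval 1.01 to 1.19) and with *sgg* made 2 of 23 clock genes. Among 81 homeobox and early patterning genes there were *caup*, of the Iroquois complex, with 781 ChIP and 688 input tags (ratio 1.14, interval 1.02 to 1.26), and *cad*, the fly Cdx gene, with 1381 ChIP and 1253 input tags (ratio 1.10, interval 1.02 to 1.19). The intervals of *N*, *dsf*, *Clk*, *caup* and *cad* lay above 1, and none of these genes passed after adjustment. All listed regions were selected for ChIP above input, so an interval above 1 is not separate evidence of it.

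The list with the most first genes was that of ion channels and neurotransmission, with 7 of 72 genes. Of that list 34 genes (47.2%) were in the *chico* list at any location, where 14.2% of protein-coding genes were. Other lists had high shares too, those of hormone and nuclear receptors (42.5%), homeobox and patterning genes (40.7%), the clock (39.1%) and Notch signalling (35.9%), and no difference was tested. The largest ratio was at *cac*, the pore-forming subunit of the presynaptic calcium channel, with 807 ChIP and 713 input tags (1.13, interval 1.02 to 1.25). The serotonin receptor gene *5-HT1A* had 597 ChIP and 541 input tags (ratio 1.11, interval 0.981 to 1.24). Its start was 6813 bp from the centre, and the region overlapped *CG15109*, whose start was 925 bp away. *Tbh*, the enzyme of octopamine synthesis, had 673 ChIP and 610 input tags (interval 0.987 to 1.23), and *ine* was described above. The remaining genes were *slo*, *Irk2* and *Vmat*, a calcium-activated potassium channel, an inward rectifier potassium channel and the vesicular monoamine transporter, with ratios of 1.09, 1.08 and 1.08. The region of *Irk2* overlapped *CG10177* and that of *Vmat* overlapped *CG6145*. Of the 7 genes 3 had an exact p under 0.05 before adjustment, where 57.1% of all upstream regions did. The length of the genes was not adjusted for, and its part in these counts was not tested.

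Overlap with the IPC list was limited. At least 1 bp was shared with an IPC region by 12 of 205 upstream regions (5.85%, Wilson interval 3.38 to 9.95%), against 82 of all 1331 *chico* regions (6.16%). These touched 12 of the 763 IPC regions (1.57%). Every one of the 12 lay wholly inside its IPC region, and the upstream regions were 943 to 2653 bp wide against 8530 to 56394 bp for the IPC regions. The centre lay within 500 bp of the position that the IPC list gives for its region in 6 of the 12, and 3 of the IPC regions were at most 10 kb wide. The lists were also spread differently over the chromosome arms, since 17.6% of upstream regions were on 2R and 26.8% on 3R, against 42.5% and 2.62% of IPC regions on these arms. By arm the overlap was found in 7 of 36 upstream regions on 2R, 4 of 26 on 3L, 1 of 47 on X, and none of 40 on 2L, 55 on 3R or 1 on 4, and among all *chico* regions in 54 of 243 on 2R and 0 of 399 on 3R. The part of the arms in the overlap was not tested.

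**Figure D5:**
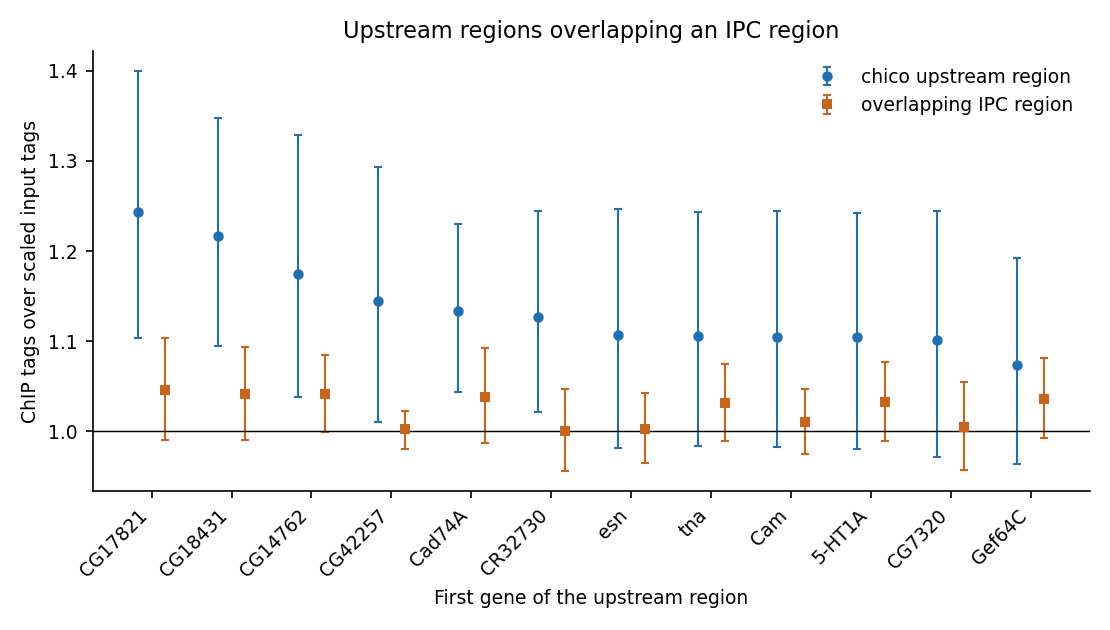
Ratio of ChIP to scaled input tags of the 12 upstream *chico* regions (blue circles) and of the IPC regions they lie in (orange squares), by first gene. Bars are 95% exact binomial intervals that cover at most counting error. The *chico* ratios run from 1.073 to 1.243 and the IPC ratios from 1 to 1.046.

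In the 12 overlapping pairs the *chico* ratio had a median of 1.117 and the ratio of the surrounding IPC region a median of 1.032. An exact p under 0.05 was found for 9 of these 12 upstream regions (75%), where 57.1% of all upstream regions had one. Of the 12 IPC regions 1 had such a p. None of them had an adjusted p of at most 0.01 by the exact binomial test with Benjamini-Hochberg adjustment. The shares over all 763 IPC regions are not given here, so these counts cannot be called particular to the 12. The regions and the scaling of the input differ between the lists, so the ratios stand side by side without a test of their difference. At *CG17821* the *chico* region had a ratio of 1.24, and the IPC region of 8530 bp around it had 2729 ChIP and 2610 input tags, a ratio of 1.05 (interval 0.991 to 1.10). At *CG18431* the *chico* ratio was 1.22 and the IPC region had 3216 ChIP and 3090 input tags, a ratio of 1.04 (interval 0.990 to 1.09). The IPC region around the *CG14762* region was the one with an exact p under 0.05 (0.0277), with 4606 ChIP and 4423 input tags, and its own first gene was *Optix*. The *chico* region of *CG42257*, with 553 ChIP and 484 input tags, lay in the widest of these IPC regions, 56394 bp, which had 17195 ChIP and 17166 input tags. The region of *Cad74A*, a cadherin gene, had 1250 ChIP and 1103 input tags (ratio 1.13, interval 1.04 to 1.23), and its IPC region had 3134 ChIP and 3018 input tags (ratio 1.04).

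By gene rather than by position, 25 of the 205 first genes (12.2%) were also in the IPC list. Among the first genes of all 1331 *chico* regions 194 were (14.6%). With second and later genes included, 253 of the 2042 genes of the *chico* list were (12.4%). For 11 of the 25 the regions of both lists overlapped. In the IPC list the gene had its region upstream in 3 cases, *CG14762*, *CG11221* and *tna*, and inside its 5′ side in 18. Over all 1012 genes of the IPC list, 19.4% had their region upstream and 48.0% inside their 5′ side, and no test was made against these shares. IPC regions around these genes were up to 56394 bp wide, and the part that width has in the location was not tested.

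The centre of another *chico* region lay within 10 kb in 45 of 205 upstream regions (22.0%, Wilson interval 16.8 to 28.1%), against 229 of the 1126 other regions (20.3%, interval 18.1 to 22.8%). Within 5 kb there was one in 24 upstream regions (11.7%), against 93 other regions (8.26%), with no test of either difference. The upstream regions were spread over all arms, with 55 regions on 3R, 47 on X, 40 on 2L, 36 on 2R, 26 on 3L and 1 on 4, and the median ratio by arm lay between 1.101 and 1.105, apart from the single region on 4 with 1.08. Of the first genes 117 (57.1%) were known by a CG or CR number only, and 197 were protein-coding in the gene table.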

How the data were processed

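dFOXO ChIP and input DNA of *chico* heterozygous and IPC-ablated females was sequenced on an Illumina Genome Analyzer. Per the labels and the study's methods, the authors processed reads with CASAVA 1.6, pooled replicates, aligned them with Bowtie and called regions with PeakSeq. The deposited ChIP tags are counts per region of the pooled library. Input tags as deposited are treated as a score, because the authors multiplied them to fit the ChIP depth and rounded upwards. Enrichment, also deposited, is a ratio, ChIP over the scaled but unrounded input. The deposited p-value and adjusted p-value gave only the number of candidate regions, and the deposited p-value is 0 in 204 of the 205 upstream regions. The height is a deposited signal that was read but not compared.

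One entry per region was kept, that of lowest rank, with ties by file order. The meaning of the rank is not given in the sources used here. Exact one-sided binomial tests were run over all 1331 regions (SciPy 1.17.1), with Benjamini-Hochberg adjustment over 26819 candidate regions for *chico* and over the listed regions for IPC, at a threshold of 0.01. Intervals of ratios are Clopper-Pearson 95% intervals of the ChIP share, with the rounded input, and intervals of shares of regions are Wilson intervals. PCR copies are not independent molecules, so both cover at most counting error. The binomial tests and ratio intervals took the scaled input tags as counts. Their p-values and widths thus need not be those of the unscaled input reads. The test was also run on tags drawn from the binomial that it assumes, with adjustment over the listed regions. Those tags had no selection of regions, PCR copies or error of input scaling, so the run does not check the test against these. Gene symbols were matched to a RefSeq gene table of Release 6 by name, 200 of the 205 first genes, and none of its coordinates was used.

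Regions were named by rule, as the 12 largest ratios, genes the study followed up, the 5 largest ratios among divergent pairs and among IPC overlaps, the 3 nearest, farthest, densest, widest and lowest, and up to 4 first genes per gene list. One region that the rule names is not reported here. The members and gene lists were chosen with earlier results of these data known. Alternatives varied the choice of row, the adjustment, the input by 5%, the distance measure, the spacing of divergent pairs and the definition of overlap. A motif search planned for promoters was not run, since it needs sequence that was not used here. Depth per sample was not analysed here.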

Additional observations from a re-analysis of the deposited data

How the results depend on the processing

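Of 23 alternatives, 8 stayed within 1.5 times the reported value (for the median ratio, within its spread) and 15 did not. The number of upstream regions, 205, became 550 with any gene of the region upstream and 135 with every gene upstream, and 103 when a region had to overlap no gene of either list, an alternative chosen after seeing the data. The single region that passed became 10 with adjustment over listed regions only, 16 with the input lowered by 5% and 0 with the input raised by 5%, so the count follows the scaling of the input, which the authors' files fix. It stayed at 1 with a two-sided test or a threshold of 0.001. The 13 regions within 1 kb of the gene start became 63 from the nearest edge, 36 with the nearest start among the listed genes, 73 with a limit of 2 kb and 159 with 5 kb. The 20 divergent pairs became 0 with starts at most 1 kb apart and 13 with 5 kb. The 12 IPC overlaps became 3 with centres at most 500 bp apart, 6 with the listed position of the IPC region at most 500 bp from the centre (an alternative also chosen after seeing the data) and 3 with IPC regions at most 10 kb wide. The median ratio of 1.103 was 1.102 with 1 added to each tag number and 1.105 for regions that overlapped no gene listed for them. No paired analysis was possible because replicates of both genotypes were pooled before the tags were counted, and for the same reason no replicate could be left out.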
